A study of Homo sapiens with 18 samples.

Results

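The pregnancy-specific glycoprotein (PSG) genes PSG1, PSG2, PSG3, PSG4, PSG5, PSG6, PSG8, PSG9 and PSG11 are 9 of the 60252 genes counted. They were chosen by name as paralogs of PSG4, and PSG4 was selected because its counts were far lower in several groups than in Control. Differences from Control are therefore given as descriptions, without a test. All 9 genes were matched by their Ensembl identifiers, and all lie on the minus strand of chromosome 19.

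RNA was sequenced from MCF-10A, an immortalised human mammary epithelial line that does not form tumours, grown for 8 days as 3D structures in Matrigel. All cells stably carried a retroviral vector: empty PWZL in Control, or a splicing factor's coding sequence (SRSF2, SRSF4, SRSF6, SRSF9 or TRA2B) in the 5 overexpression (OE) groups. Each of the 6 groups has 3 samples. In every group except SRSF2-OE and SRSF9-OE, replicates 1 and 2 are by their labels lanes of a single library. These lanes were summed, leaving 14 libraries of 42959069 to 121601376 counts. The labels do not say whether libraries came from separate cultures or infections, so p-values measure only the spread between libraries, which may be technical. Levels are CPM, each library's counts scaled by its total and its TMM factor.

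PSGs are secreted members of the immunoglobulin superfamily, related to the carcinoembryonic antigen (CEACAM) proteins. They are made mainly by the syncytiotrophoblast of the placenta and released into the mother's blood. Several have been reported to bind integrins, proteoglycans or the latent form of TGF-beta, and promoters of the family have been reported to respond to KLF and SP transcription factors.

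The 9 coding sequences resemble each other closely, which bears on how reads are assigned. In GENCODE release 29 they were 89.2% to 95% identical in pairs, PSG4 and PSG5 94.0%. The 60 bases below, positions 79 to 138 of each coding sequence counted from the A of the start codon, show how PSG4 and PSG5 can be told apart. They were picked as the aligned 60-base stretch in which PSG4 and PSG5 differ most, so they are not typical of the whole sequence. The 8 bases that differ are in capitals.

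PSG4: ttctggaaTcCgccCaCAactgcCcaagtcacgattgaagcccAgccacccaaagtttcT

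PSG5: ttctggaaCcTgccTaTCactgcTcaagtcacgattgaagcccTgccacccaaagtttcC

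The longest stretch identical in both coding sequences was 143 bases, longer than a 101-base read. Over annotated transcripts, 97.7% of the 101-base windows of PSG4 occurred in no other gene, and 2.28% (154 of 6749) also occurred in another PSG gene. PSG5 shared 53 windows with PSG4, PSG9 shared 51, PSG6 shared 26 and PSG7 shared 24. PSG1, PSG2, PSG3, PSG8 and PSG11 shared none with PSG4. Among the other 8 genes, the share of windows found elsewhere in the family ran from 2.85% in PSG6 to 10.6% in PSG8, and 11.2% of PSG9 windows, some of them also shared with the family, occurred in the pseudogene CEACAMP10. The treatment of reads with several matches in counting is unknown from the labels, so counts of a few reads in PSG5, PSG6 and PSG9 may include reads of PSG4, which was not tested.

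**Figure D1:**
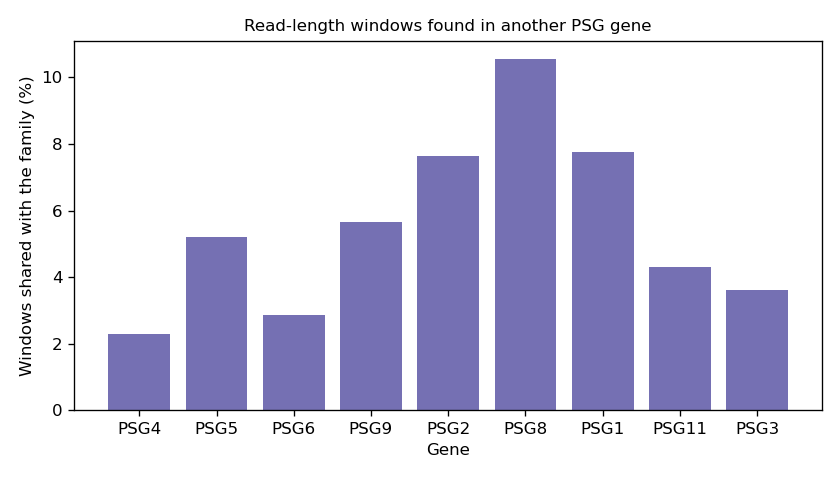
Percent of the distinct 101-base windows of each gene's annotated transcripts (y axis) that also occur in another PSG gene, for the 9 genes (x axis). PSG4 has the lowest share, 2.28%, and PSG8 the highest, 10.6%.

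Promoter sequence was at hand for PSG3, PSG4 and PSG5, from the RefSeq table of build GRCh38.p14. The 250 bases before each annotated start are shown because PSG4 and PSG5 differ in level while their upstream sequences are alike. Capitals mark the GC box core CCGCCC or the CACCC core CCACCC, letters searched on both strands because KLF and SP proteins are known to bind such boxes. The windows are chr19:42740482-42740731 for PSG3, chr19:43205639-43205888 for PSG4 and chr19:43186537-43186786 for PSG5, all on the minus strand.

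PSG3: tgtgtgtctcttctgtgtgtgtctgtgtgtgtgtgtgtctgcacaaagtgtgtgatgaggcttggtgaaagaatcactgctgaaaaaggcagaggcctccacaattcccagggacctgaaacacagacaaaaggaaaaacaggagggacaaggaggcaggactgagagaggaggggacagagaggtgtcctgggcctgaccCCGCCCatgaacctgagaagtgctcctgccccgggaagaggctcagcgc

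PSG4: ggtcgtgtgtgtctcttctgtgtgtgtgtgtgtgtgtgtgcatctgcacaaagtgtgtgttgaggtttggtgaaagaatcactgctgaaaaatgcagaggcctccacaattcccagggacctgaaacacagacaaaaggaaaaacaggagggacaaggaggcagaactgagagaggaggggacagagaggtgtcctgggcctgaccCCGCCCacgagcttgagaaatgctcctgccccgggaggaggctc

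PSG5: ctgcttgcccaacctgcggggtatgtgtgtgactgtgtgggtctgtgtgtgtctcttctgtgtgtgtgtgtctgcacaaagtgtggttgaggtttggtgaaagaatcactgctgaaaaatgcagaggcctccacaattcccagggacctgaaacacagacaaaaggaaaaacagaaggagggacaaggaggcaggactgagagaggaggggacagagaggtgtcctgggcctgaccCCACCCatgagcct

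Aligned, they were 95.1% identical between PSG3 and PSG4 (245 bases aligned), 96.3% between PSG3 and PSG5 (214) and 94.98% between PSG4 and PSG5 (219). The GC box core began 49 bases before the start of PSG3 and 44 before that of PSG4. PSG5 had the CACCC core 14 bases before its start. The cores differ by a single base and directly follow the same run of bases in each printed sequence. Their distances therefore differ with where each annotated start lies. Of 35116 promoters of the same length, 42.6% held CCGCCC and 31.3% held CCACCC, so neither match is rare.

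PSG4 was the PSG gene with the most counts, and it was lower in every OE library than in either Control library. Its level was 30.4 CPM (3974 counts) in Control replicates 1-2 and 6.32 CPM (322 counts) in Control replicate 3. The Control libraries thus differed 4.81-fold from each other, while the 2 lanes of the first agreed to a ratio of 0.964. In bulk RNA, fewer cells that make a transcript and less transcript per cell cannot be told apart.

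In SRSF2-OE, PSG4 stood at 0.964 CPM (48 counts) in replicate 1, 0.235 CPM (11 counts) in replicate 2 and 2.54 CPM (113 counts) in replicate 3. SRSF4-OE held 0.913 CPM (81 counts) in replicates 1-2 and 1.06 CPM (51 counts) in replicate 3. SRSF6-OE had 1.45 CPM (162 counts) in replicates 1-2 and 4.26 CPM (198 counts) in replicate 3, the highest OE library. SRSF4-OE replicates lay close together, whereas those of SRSF2-OE spanned the widest range as a ratio and those of SRSF6-OE in CPM.

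In SRSF9-OE the levels of PSG4 were 2.66 CPM (148 counts), 0.716 CPM (36 counts) and 0.767 CPM (32 counts) in replicates 1, 2 and 3. TRA2B-OE had 0.396 CPM (39 counts) in replicates 1-2 and 0.866 CPM (44 counts) in replicate 3. The OE groups overlapped with each other, and their 12 libraries spanned 18.2-fold around a median of 0.939 CPM. The lower Control library was 1.48-fold above the highest OE library. Against the Control library of the same label set, described next, the fold ran from 1.48 to 76.8.

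**Figure D2:**
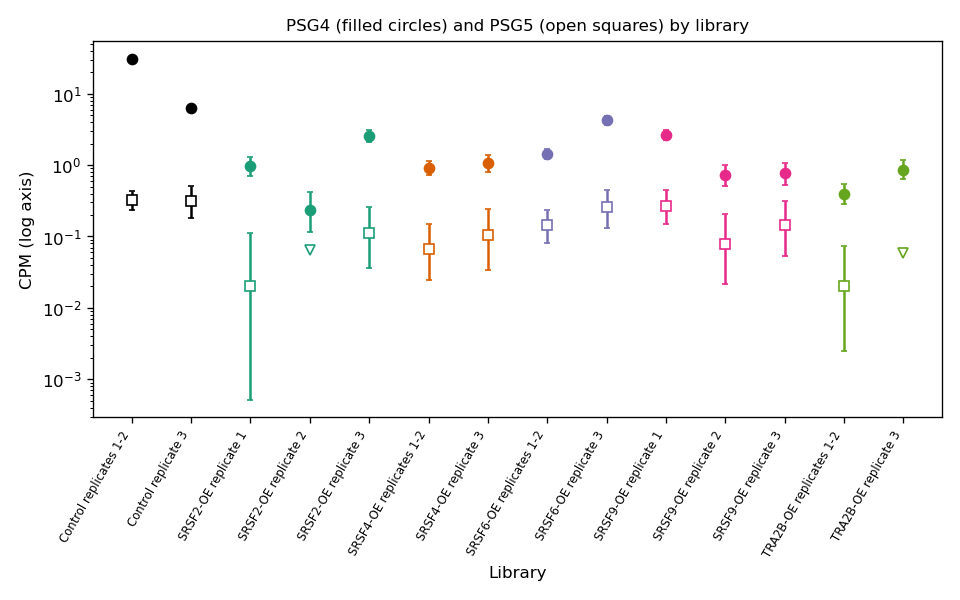
CPM on a log axis (y) in each of the 14 libraries (x), coloured by group, for PSG4 (filled circles) and PSG5 (open squares). Bars are exact 95% Poisson intervals for counting error only, and triangles mark libraries without a PSG5 count, drawn at the CPM of 3 counts. PSG4 lies between 0.235 and 4.26 CPM in OE libraries and at 6.32 and 30.4 CPM in Control.

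The fit included a term for label set, which parts the 4 summed libraries, labelled with a library ID, from the 10 with a numeric label. From edgeR's quasi-likelihood fit the log2 difference of PSG4 from Control was -4.06 ± 1.16 (standard error) in SRSF2-OE, -4.29 ± 1.21 in SRSF4-OE, -2.81 ± 1.19 in SRSF6-OE, -3.90 ± 1.16 in SRSF9-OE and -4.98 ± 1.28 in TRA2B-OE. These 5 differences share the same Control libraries. Of 21326 genes fitted, 13, 60, 123, 7 and 4, in that order, had a lower fitted difference. Without Control replicates 1-2 the differences shrank to -2.33, -2.11, -0.82, -2.18 and -2.92, and without Control replicate 3 they were -5.59 in SRSF2-OE, -4.07 in SRSF6-OE and -5.42 in SRSF9-OE.

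Groups that do not overlap are not rare here. Of the 21326 genes, 3.87% lay lower in all 12 OE libraries than in both Control libraries, and both PSG genes that passed the filter on low counts, PSG4 and PSG5, were among them. PSG4 was selected for being low outside Control, and PSG5 as its paralog with earlier results known, so that count carries no weight.

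**Figure D3:**
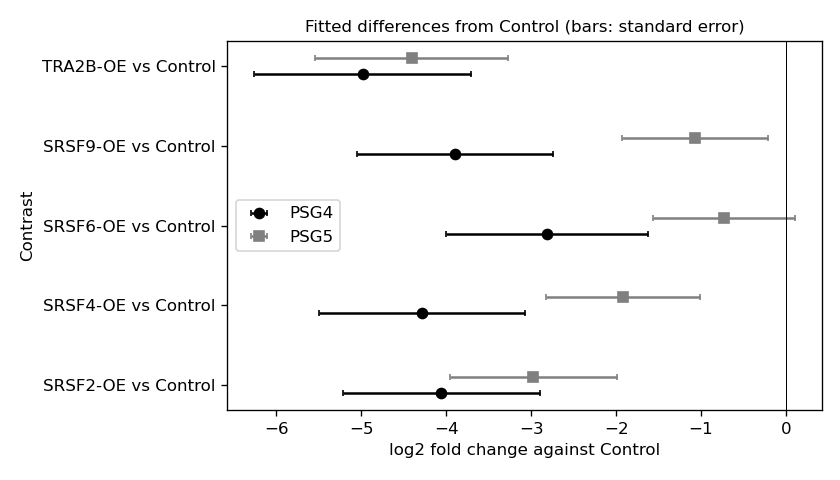
Fitted log2 difference from Control (x axis) for PSG4 (circles) and PSG5 (squares) in the 5 contrasts (y axis), with standard errors as bars. All 10 estimates lie below 0, from -4.98 for PSG4 in TRA2B-OE to -0.73 for PSG5 in SRSF6-OE.

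PSG5, which like PSG9 lies next to PSG4 in annotation order, came next in counts with 130 over all libraries against 5259 for PSG4. Per kilobase of annotated exon that is 27.8 counts for PSG5 and 838 for PSG4. PSG5 was 0.321 CPM (42 counts) in Control replicates 1-2 and 0.314 CPM (16 counts) in Control replicate 3, so unlike PSG4 its 2 Control values were nearly equal. Whether that contrast between the genes exceeds chance was not tested.

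Among OE libraries PSG5 was highest in SRSF9-OE replicate 1 at 0.270 CPM (15 counts) and SRSF6-OE replicate 3 at 0.258 CPM (12 counts). SRSF9-OE replicates 2 and 3 had 0.0796 and 0.144 CPM, and SRSF6-OE replicates 1-2 had 0.143 CPM. SRSF4-OE held 0.0677 CPM in replicates 1-2 and 0.104 CPM in replicate 3. TRA2B-OE had 0.0203 CPM in replicates 1-2.

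SRSF2-OE had 1, 0 and 5 PSG5 counts in replicates 1, 2 and 3, or 0.0201, 0 and 0.112 CPM, so replicate 3 lay above both SRSF4-OE libraries. TRA2B-OE had 2 in replicates 1-2 and 0 in replicate 3. A count of 0 allows up to 0.0640 CPM in SRSF2-OE replicate 2 (3 counts). Annotated exons of PSG5 overlap the antisense gene AC004784.1, which had at most 10 counts in a library, and the labels do not say if counting used strand.

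The log2 difference of PSG5 from Control was -2.97 ± 0.98 in SRSF2-OE, -1.92 ± 0.91 in SRSF4-OE, -0.73 ± 0.84 in SRSF6-OE, -1.07 ± 0.86 in SRSF9-OE and -4.41 ± 1.14 in TRA2B-OE. Leaving out a library moved the TRA2B-OE value most, to -7.56 without TRA2B-OE replicates 1-2, which leaves a group with 0 counts, and the SRSF2-OE value to -4.86 without SRSF2-OE replicate 3.

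Differences among the OE groups were not used to choose PSG5 and were tested. The edgeR quasi-likelihood F test over the 5 OE groups gave PSG5 an adjusted p of 0.447 over all genes and an unadjusted value of 0.044, so PSG5 was not called. Over all genes, 0.0375% were. In the 10 direct contrasts between OE groups edgeR and limma-voom each called PSG5 in 0, and 3 had an unadjusted edgeR p under 0.05. DESeq2 also called 0, but in most of these contrasts, SRSF6-OE against TRA2B-OE among them, it gave PSG5 no adjusted p. Its 0 therefore carries little weight. The smallest edgeR p was 0.0103, for SRSF6-OE against TRA2B-OE, where PSG5 was 3.68 ± 1.17 log2 units higher in SRSF6-OE. The smallest adjusted p was 0.283, for SRSF2-OE against SRSF6-OE. Over all genes, edgeR called 0.0234% in SRSF2-OE against SRSF6-OE and in SRSF6-OE against SRSF9-OE, 0.00469% in SRSF2-OE against SRSF9-OE and in SRSF4-OE against SRSF6-OE, and 0% in the other 6.

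The remaining 7 genes had too few counts to pass the filter. With no filter all 8 genes other than PSG4 were tested, and edgeR called 0 in the F test over the OE groups and 0 in the 10 direct contrasts. PSG6 had 66 counts in all, 27 of them in Control. Its highest level was outside Control, 0.430 CPM (20 counts) in SRSF6-OE replicate 3, against 0.176 CPM (23 counts) in Control replicates 1-2 and 0.0785 CPM (4 counts) in Control replicate 3. The other OE libraries had 0 to 6 PSG6 counts.

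PSG9 had 42 counts, 28 in Control replicates 1-2, 2 in Control replicate 3 and 0 to 3 in each OE library. PSG8 had 27 counts, 20 in Control replicates 1-2, 3 in Control replicate 3 and at most 1 in each OE library. The 3 counts of Control replicate 3, 0.0588 CPM, are no more than a count of 0 allows in the shallower OE libraries (up to 0.0719 CPM in SRSF9-OE replicate 3), so PSG8 could not be told apart between them. Exons of PSG8 overlap the pseudogene PSG10P, and those of PSG9 overlap CEACAMP10.

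PSG2 had 27 counts, 15 in Control replicates 1-2 and 0 in Control replicate 3. Of those 15, 14 came from the first lane and 1 from the second, a split not seen in PSG4. PSG1 had 13 counts, PSG11 had 8 and PSG3 had 4, with at most 5 in a library. At this depth a difference between groups in these 3 genes was not detectable.

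**Figure D4:**
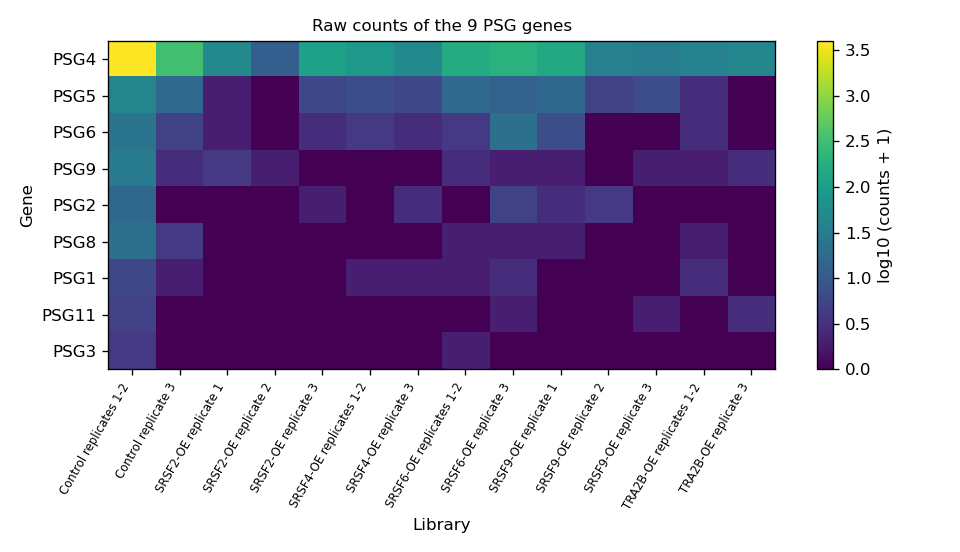
Counts of the 9 PSG genes (rows) in the 14 libraries (columns), coloured by log10 of the count plus 1. PSG4, with up to 3974 counts, stands out in every library, and the 20 PSG6 counts of SRSF6-OE replicate 3 stand out among the other OE libraries.

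Loci other than PSG4 made up a minority of the family's counts in every library. With PSG7 and PSG10P included, they took 3.54% of PSG counts in Control replicates 1-2 (Wilson 95% interval 3.02% to 4.15%) and 7.74% in Control replicate 3. In OE libraries they took 6.61% to 20% of PSG counts. Pooled, the share was 3.87% of 4469 counts in Control and 13.8% of 1117 counts in OE. The Control replicate 3 value lies inside the OE range, so the groups overlap, and this share follows from the PSG4 level used to choose the genes. Intervals cover counting error only.

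**Figure D5:**
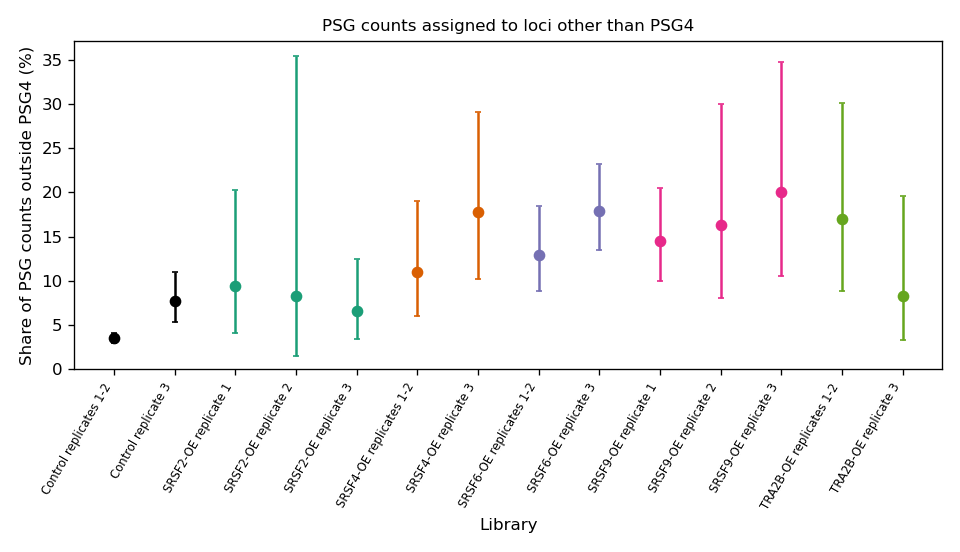
Percent of all PSG counts that fell on loci other than PSG4 (y axis) in each library (x axis), with Wilson 95% intervals for counting error. Control replicates 1-2 are lowest at 3.54%, and SRSF9-OE replicate 3 is highest at 20%.

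Across the 14 libraries log2 CPM of PSG4 and PSG5 correlated at r = 0.795 as a description, and at 0.782 over the 12 OE libraries. The genes outside the family most like PSG4, of 11584 candidates, were ETV3 (r = 0.947), SAP30L (0.930), INTS6-AS1 (0.925), RNF19A (0.919), ZNF836 (0.910), CLDND1 (0.906), KLHL24 (0.899) and SVIL (0.897). Over the OE libraries alone r was 0.886 for ETV3 and 0.678 for KLHL24. ETV3, an ETS-family repressor, was 56.7 CPM in Control replicates 1-2, 48.5 in Control replicate 3 and 37.7 to 48.5 in OE libraries, a far narrower range than that of PSG4. Those most like PSG5 were MIR17HG (0.861), C3orf52 (0.850), RLIMP2, BMPR1B, COMMD6, DENND1C, ANKRD36BP1 and SAP30L (0.802). The libraries behind these values differ in depth and label set, and likeness was searched over all candidates.

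Other gene lists were set beside the share of all genes called in each contrast with Control. In the order SRSF2-OE, SRSF4-OE, SRSF6-OE, SRSF9-OE and TRA2B-OE, DESeq2 called 1.1%, 1.25%, 1.95%, 0.0141% and 0.867% of genes lower and 1.27%, 1.41%, 3.63%, 0.0563% and 1.28% higher. edgeR called 0% lower in each contrast, and higher 0.00469% in SRSF6-OE, 0.00938% in TRA2B-OE and 0% in the other 3.

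Of 7 reported regulators of PSG promoters, all passed the filter, and edgeR called 0 in any contrast with Control, with 0 to 2 at an unadjusted p under 0.05. Their median log2 difference was -0.15 to -0.30, against -0.04 to 0.04 over all genes. DESeq2 called SP3, a zinc-finger factor, lower in SRSF2-OE (edgeR log2 difference -0.46 ± 0.12). SP3 was lower in all 12 OE libraries than in both Control libraries, as were 3.87% of all genes. KLF6, reported to act on PSG promoters, was 513 CPM in Control replicates 1-2, 246 CPM in Control replicate 3 and 122 to 553 CPM in OE libraries, so the groups overlapped. SP1 was 167 and 145 CPM in Control and 118 to 188 CPM in OE libraries. RXRA, a nuclear receptor, was 165 and 190 CPM against 150 to 221 CPM.

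Other placental genes were set beside PSG4. Of 41 listed, 40 were in the table, 18 passed the filter and 11 had 0 counts in all libraries, among them CSH1 and LGALS13. None was lower in all 12 OE libraries than in both Control libraries. Over all genes 3.87% were, so a list of this size can hold none without differing from that share. edgeR called 0, with 3 to 6 at an unadjusted p under 0.05. Their median log2 difference was above 0 in each contrast, from 0.62 in SRSF9-OE to 1.04 in SRSF6-OE. DESeq2 called 0 to 3 higher, among them MFSD2A, a lipid transporter, and 0 lower. MFSD2A was 36.2 and 51.1 CPM in Control and 70.5 to 122 CPM in OE libraries. TFAP2A, a trophoblast transcription factor, was 129 and 116 CPM in Control and 107 to 181 CPM in OE. INHBA, an activin subunit, was 29.6 and 21.7 CPM in Control and 2.07 to 596 CPM in OE, and PEG10 was 28.8 and 48.9 CPM against 14.8 to 86.3 CPM.

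Of 12 CEACAM genes, the nearest relatives of the family, 3 passed the filter, 6 had 0 counts and none was lower in every OE library. edgeR called 0 of them in each contrast, with at most 1 at an unadjusted p under 0.05, and DESeq2 called 0. CEACAM19 was 8.32 and 5.47 CPM in Control and 4.003 to 12.7 CPM in OE, and CEACAM1 was 0.856 and 2.79 CPM against 1.06 to 7.75 CPM. CEACAM6 had 0 and 0.118 CPM in Control and up to 5.64 CPM in OE, and CEACAM20 had 10 counts in all. Of 26 neighbours of the PSG cluster, 22 passed, edgeR called 0 with 2 to 9 at an unadjusted p under 0.05, and none was lower in all OE libraries. Over all genes 3.87% were lower in every OE library than in both Control libraries, so lists this short can hold none at that share. DESeq2 called 8 of them higher in SRSF6-OE, 3 in SRSF2-OE, 1 each in SRSF4-OE and TRA2B-OE and 0 in SRSF9-OE, and 1 lower, CD177 in TRA2B-OE. The single genes called higher in SRSF4-OE and TRA2B-OE were both LIPE, a lipase. CIC was 104 and 101 CPM in Control and 74.4 to 161 CPM in OE. KCNN4, a potassium channel, was 37.4 and 61.7 CPM in Control and 71.9 to 151 CPM in OE, and ETHE1 was 30.4 and 51.6 CPM against 41.2 to 102 CPM.

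Of 21 reported binding partners and latent TGF-beta genes, 20 passed and edgeR called 0, with 1 to 6 at an unadjusted p under 0.05. SDC2, a heparan sulfate proteoglycan, was 5.13 and 2.53 CPM in Control and 0.108 to 2.04 CPM in OE libraries, with no overlap. It was the 1 gene of the 20 that lay lower in every OE library, against 3.87% of all genes. DESeq2 called SDC2 lower in SRSF2-OE, SRSF4-OE and SRSF6-OE, and it called SDC3 higher in SRSF2-OE and TGFB2 higher in TRA2B-OE. TGFB1 went the other way, at 52.4 and 68.8 CPM in Control and 71.5 to 152 CPM in OE libraries. No share over all genes is at hand for genes higher in every OE library. The most abundant partners were SDC1 at 415 and 674 CPM in Control and 464 to 2070 CPM in OE, and the integrin subunit ITGB1 at 593 and 589 against 512 to 956 CPM. LGALS1, a galectin, was 94.7 and 452 CPM in Control and 318 to 1428 CPM in OE, and LTBP1 was 127 and 334 CPM against 217 to 985 CPM.

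The libraries carry limits that touch these values. The introduced factor lay above all other groups' libraries in 8 of the 12 OE libraries; SRSF2-OE replicate 1, both SRSF6-OE libraries and TRA2B-OE replicate 3 lay within their range. The 2 libraries with the highest mitochondrial share, SRSF2-OE replicate 1 (16.4%) and TRA2B-OE replicate 3 (14.3%), are among those 4, and without them PSG4 differed by -2.62 to -5.57. All 10 breast epithelial markers had counts in every library, and their sum was 21585 and 33416 CPM in Control and 18873 to 45570 CPM in OE. KRT17 of that list, like PSG4 and 3.87% of all genes, was lower in every OE library than in both Control libraries. It was 6900.4 and 9782 CPM in Control and 699 to 6566 CPM in OE. Between the 2 Control libraries KRT17 and PSG4 differed in opposite directions. Summed endothelial markers were also lower in every OE library, at 26.2 and 20.2 CPM in Control and 2.35 to 12.6 CPM in OE. That sum was mostly KDR (26.2 and 20.1 CPM in Control), while VWF was at most 0.135 CPM and CDH5 at most 0.0197 CPM. Summed fibroblast markers were 550 and 263 CPM in Control and 160 to 433 CPM in OE. That sum was mostly DCN (413 and 126 CPM in Control) and COL1A1 (136 and 137 CPM). The highest value in any library was 0.366 CPM for COL1A2, 0.0448 CPM for COL3A1, 0.260 CPM for LUM and 2.68 CPM for PDGFRB. The part of these markers in the PSG4 difference was not tested.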

How the data were processed

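The members and gene lists were chosen with earlier results of these data known. The authors deposited whole-number counts per gene for 18 samples. The submitters' processing notes name Trimmomatic 0.36, STAR 2.5.1b, Subread, featureCounts and GRCh37; strand and multi-mapping settings are not given in the sources used here. Gene names came from GENCODE release 29 by identifier (55951 of 60252 matched). Lanes of a shared library were summed, giving 14 libraries. Counts were TMM-scaled, filtered with filterByExpr (minimum count 10; 21326 genes) and fitted with edgeR 4.0.16 (R 4.3.3) with group and label set as terms (7 residual degrees of freedom), with Benjamini-Hochberg adjustment at 0.05. DESeq2 1.42.0 and limma-voom (limma 3.58.1) were alternatives. Scripts were tested on simulated data. All PSG genes were named, with the 8 genes outside the family most correlated with PSG4 or PSG5 (log2 CPM, prior count 2, mean CPM of at least 3). The rule's other named genes were members of each list called by edgeR or, as it called none, the 4 with the highest mean CPM (marker lists are given as sums; 1 gene is not reported here). SDC2, SDC3, TGFB1, TGFB2, KDR, KRT17, CD177, LIPE, CSH1 and LGALS13 lie outside the rule and were named after their values were seen. Single fibroblast markers were also named after their values were seen.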

Additional observations from a re-analysis of the deposited data

How the results depend on the processing

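All PSG4 differences from Control stayed below 0 in every alternative and with each of the 14 libraries left out. That sign was close to fixed in advance, because PSG4 was selected as low outside Control. All 12 OE libraries lay below both Control libraries, so the unchanged sign carries no weight. Leaving out each library gave ranges of -5.59 to -2.33 for SRSF2-OE, -5.38 to -2.11 for SRSF4-OE, -4.07 to -0.82 for SRSF6-OE, -5.42 to -2.18 for SRSF9-OE and -6.18 to -2.92 for TRA2B-OE; the ends near 0 came without Control replicates 1-2. Fitting only the groups compared gave -2.35 for SRSF2-OE and -2.17 for SRSF9-OE, groups that hold a single label set. With 18 samples as separate replicates, edgeR called PSG5 in 1 direct contrast in place of 0. Whether replicate numbers pair libraries was not settled. Deviations from the group mean correlated above 0.1 in 16 of 31 same-numbered pairs (median r 0.119, range -0.42 to 0.494). Pairs with different numbers were not set beside them. A replicate block gave PSG4 differences of -3.75, -4.29, -2.81, -3.30 and -4.98 in the group order above and changed no call. Leaving out the 2 libraries with the highest mitochondrial share was chosen after seeing the data. The 2 Control libraries limit every difference from Control, and few counts limit the other 8 genes.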
